A study of Mus musculus with 35 samples.

Results

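The enzymes that build cholesterol and fatty acids, with the proteins that control them, were followed through 35 arrays of sorted mouse myeloid cells. The genes were taken from a list of 33 symbols, each read from its brightest probe set on average. Of these, 32 were found among the 18193 genes with a probe set of a single symbol, and Acat2 was not analysed here. They comprised 16 sterol enzymes, 6 regulators and sterol carriers, 3 enzymes of fatty acid synthesis, and 7 desaturases and elongases. The list was drawn up by gene name, with no measured value as a filter, but with earlier results of these data known.

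All cells were sorted by flow cytometry from male C57BL/6J mice of 8 weeks, with no treatment, and the total RNA of 1 sorted sample was hybridised to each Affymetrix Mouse430_2 array. From bone marrow there were 2 arrays of SatM (monocytes that the labels link to fibrosis) and 2 of inflammatory monocytes, 4 of SMP (labelled as the progenitor of SatM) and 4 of cMoP (common monocyte progenitors), and 1 each of GMP and MDP (granulocyte-monocyte and monocyte-dendritic cell progenitors). Of the SMP and of the cMoP arrays, 2 each had WT in the title, without a further genotype in the labels. The spleen gave 2 arrays each of eosinophils, basophils and neutrophils. A separate panel of 15 arrays was sorted by tissue: lung macrophages (2 arrays), SatM of spleen, bone marrow, blood and lung (4), M2-like resident macrophages of spleen and bone marrow (2), Ly6C-negative monocytes outside the other gates from spleen and blood (2), cells with dull Msr1 and Ceacam1 staining, from bone marrow and lung (2), and cells negative for both markers from spleen, bone marrow and blood (3). The 4 lung arrays were titled as bronchoalveolar lavage, the washing of the airspaces. The labels do not say whether arrays of 1 group came from separate animals, so p-values measure the spread between these samples, which may be technical. In sorted bulk RNA, fewer cells that express a gene and less RNA per cell cannot be told apart.

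Cholesterol is built from acetyl-CoA through the mevalonate pathway, which yields isoprenoid units, then squalene, then a ring that is trimmed to cholesterol. Fatty acid synthesis shares the acetyl-CoA and passes its products to elongases, which lengthen the chain, and desaturases, which insert double bonds. Both branches are switched on by the SREBP transcription factors (Srebf1 and Srebf2), which Scap carries to the Golgi for cleavage when sterols are low and which the Insig proteins hold back when sterols are high. Alveolar macrophages live on the airspace side of the lung and clear the lipid-rich surfactant, and myeloid cells in general take much of their sterol from outside.

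SREBP acts on promoters together with the factor NF-Y, which binds the CCAAT box, so the promoters of the sterol enzymes are shown first. The RefSeq promoter table (build GRCm38.p6) held windows for 25 of the 32 genes. It gave none for Fdps, Fdft1, Sqle, Stard4, Scd1, Scd2 and Fads1. The 250 bases before each start were searched on both strands for CCAAT and for CACCCCA, part of the classical sterol response element. The 2 motifs can share the letters CCA, and no pair of them did so in the sequences shown. CCAAT lay in at least 1 window of 13 of the 13 sterol enzymes with an entry, against 37.5% of the 27025 genes in the table. By role, it was found for 4 of 5 regulators, 1 of 3 fatty acid synthesis genes and 2 of 4 desaturases and elongases. CACCCCA was found for 3 of the 25 genes (12.0%), namely Hmgcs1, Srebf2 and Elovl1, against 7.64% of all genes. A match is a description of letters in a window and not a binding site. The first sequence is the 250 bases before the start of Hmgcs1, which holds both motifs, at chr13:119690101-119690350 on the plus strand. Motifs on either strand are in capitals (ATTGG is CCAAT read from the opposite strand), and each sequence runs 5′ to 3′ along its gene.

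Hmgcs1: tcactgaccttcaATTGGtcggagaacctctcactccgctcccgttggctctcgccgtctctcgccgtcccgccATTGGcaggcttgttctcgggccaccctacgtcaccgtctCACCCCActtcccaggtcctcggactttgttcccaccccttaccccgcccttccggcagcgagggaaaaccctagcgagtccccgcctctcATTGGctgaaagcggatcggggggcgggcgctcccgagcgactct

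The 100 bases before the start are given for 7 further enzymes that the results turn on: Mvd (chr8:122443423-122443522, minus strand), Idi1 (chr13:8885506-8885605, plus strand), Cyp51 (chr5:4104698-4104797, minus strand), Nsdhl (chrX:72918421-72918520, plus strand), Sc5d (chr9:42264301-42264400, minus strand), Dhcr7 (chr7:143830114-143830213, plus strand) and, as the fatty acid enzyme with the motif, Fasn (chr11:120824548-120824647, minus strand).

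Mvd: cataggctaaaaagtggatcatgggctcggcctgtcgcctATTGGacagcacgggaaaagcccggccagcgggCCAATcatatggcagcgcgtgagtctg
Idi1: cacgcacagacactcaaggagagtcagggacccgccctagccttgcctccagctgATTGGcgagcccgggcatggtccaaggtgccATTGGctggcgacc
Cyp51: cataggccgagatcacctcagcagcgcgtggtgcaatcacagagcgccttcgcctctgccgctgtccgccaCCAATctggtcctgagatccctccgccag
Nsdhl: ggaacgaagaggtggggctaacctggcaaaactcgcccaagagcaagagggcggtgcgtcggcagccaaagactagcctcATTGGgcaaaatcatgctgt
Sc5d: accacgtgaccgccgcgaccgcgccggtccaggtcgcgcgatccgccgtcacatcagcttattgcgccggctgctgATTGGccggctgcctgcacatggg
Dhcr7: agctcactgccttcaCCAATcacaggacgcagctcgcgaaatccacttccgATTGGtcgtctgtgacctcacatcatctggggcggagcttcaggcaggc
Fasn: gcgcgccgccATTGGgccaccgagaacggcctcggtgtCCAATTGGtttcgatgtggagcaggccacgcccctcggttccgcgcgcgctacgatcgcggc

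The 6 sterol enzyme promoters in this group hold 1 or 2 CCAAT boxes each within 100 bases of the start shown. Where a gene had several windows, the one with the most CCAAT boxes was shown. This applied to Dhcr7, whose windows from chr7:143822917 and chr7:143823149 held 0. Fasn holds 3, of which 2 on opposite strands share letters.

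Levels below are the deposited values on a log2 scale. All arrays had the same lowest value, 2.30, here called the floor. It held 43.6% to 48.3% of an array's probe sets. A gene was called where limma's moderated test gave a Benjamini-Hochberg adjusted p under 0.05, over all genes tested in the model, with an absolute log2 difference of at least 1. The sorted cells were checked by marker lists. SatM of bone marrow averaged 11.2 to 11.4 over 6 nonclassical monocyte genes, against 7.54 to 7.89 in inflammatory monocytes. SMP averaged 13.04 to 13.7 over 6 basophil genes, close to the 13.7 to 13.9 of basophils and far from the 3.20 to 3.55 of cMoP, while the 6 nonclassical genes averaged 4.07 to 4.83 in SMP. By these lists the arrays labelled SMP, a monocyte progenitor, carried basophil genes at levels near those of basophils. The cells negative for Msr1 and Ceacam1, labelled as monocytes, averaged 11.1 to 12.7 over 3 NK cell genes and 2.77 to 4.63 over 10 macrophage genes. SatM of the panel averaged 7.06 to 10.98 over the nonclassical genes and 9.76 to 11.4 over 5 classical monocyte genes, and that of bone marrow also 12.5 over 6 neutrophil genes. The dull cells of bone marrow averaged 12.3 over the neutrophil genes and 8.23 over 5 eosinophil genes. RNA quality was read from the difference between the 3′ and 5′ control probe sets of Actb, which was 5.86 to 5.88 in eosinophils and 4.35 in dull cells of bone marrow, and at most 3.37 on every other array.

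**Figure D1:**
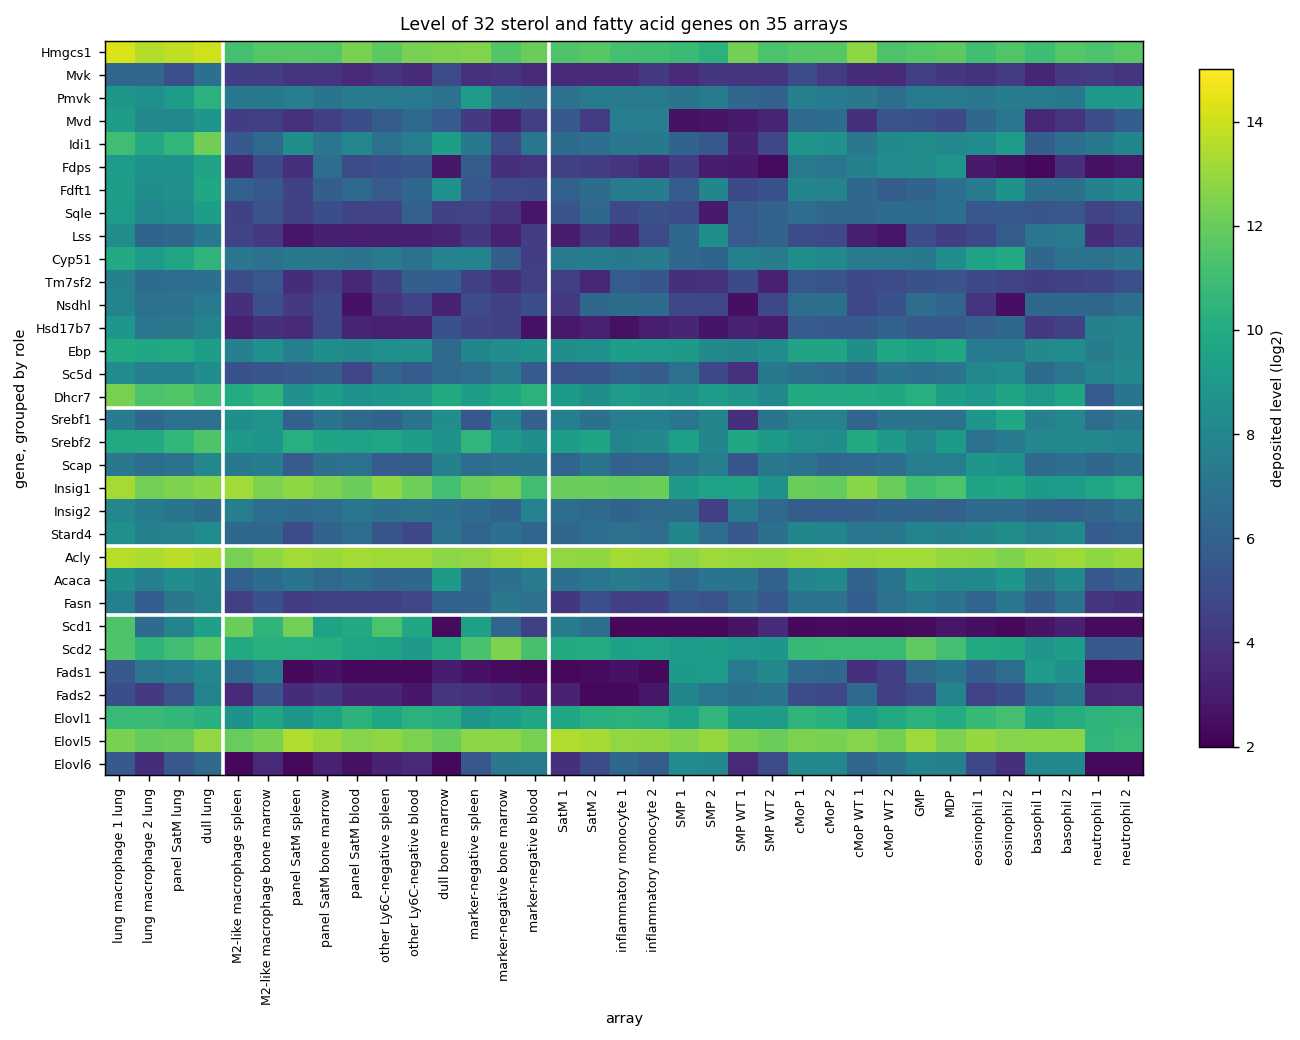
Deposited level (log2, colour) of the 32 genes (down, white lines between roles) on the 35 arrays (across, white lines after the 4 lung arrays and after the 15 panel arrays). The upper left block, sterol enzymes in lung cells, is brighter than the rest of the panel, and Scd1, Fads1, Fads2 and Elovl6 range over the arrays from the floor upwards.

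The sterol enzymes as a group were highest in cells washed from the lung. In lung cells 14 of 16 sterol enzymes had all 4 arrays above all 11 arrays from spleen, bone marrow and blood, where 4.17% of the 11734 genes tested in the panel did so. For 8 of the 16, the 4 lung arrays also lay above every one of the 31 other arrays of the study, against 1.15% of these genes: Hmgcs1, Mvk, Mvd, Idi1, Sqle, Tm7sf2, Nsdhl and Dhcr7. Outside the sterol enzymes, Stard4, a cytosolic sterol carrier, was the only 1 of 16 genes whose lung arrays were all above the rest of the panel, and none stood above all 31. These separations were counted with the values known and carry no test.

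Hmgcs1, which makes the HMG-CoA that enters the mevalonate pathway, had 14.24 and 13.52 in lung macrophages, 13.78 in lung SatM and 14.05 in lung dull cells. The 11 other panel arrays ran from 11.18 to 12.55, with a median of 11.73. Mvk and Pmvk, the 2 kinases of mevalonate, behaved unequally. Mvk had 5.15 to 6.76 in the 4 lung arrays against at most 4.95 elsewhere in the panel, whereas Pmvk had 8.54 to 10.29 against up to 9.17, so that its groups overlapped. Mvd, the decarboxylase that makes the first isoprenoid unit, had 9.25 and 8.14 in lung macrophages, 8.09 in lung SatM and 8.81 in lung dull cells. The rest of the panel had a lowest level of 3.20, a median of 4.47 and a highest of 6.46, in the other Ly6C-negative cells of blood.

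Idi1, the isomerase that activates that unit, had 9.84 to 12.19 in lung arrays and at most 9.24 in the others. Fdps, which joins the units into farnesyl diphosphate, had 9.18 and 8.65 in lung macrophages, 8.66 in lung SatM and 9.49 in lung dull cells. Among the 11 other panel arrays the lowest was 2.83, the median 4.93 and the highest 6.63, in SatM of bone marrow, and only MDP (8.74) of the other set reached the lung range. Fdft1, squalene synthase, was the second enzyme whose groups overlapped, with 8.43 to 9.72 in lung arrays and up to 8.58 in dull cells of bone marrow.

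Sqle, which oxidises squalene and is a control point of the pathway, had 9.11 and 8.09 in lung macrophages, 8.33 in lung SatM and 9.24 in lung dull cells. It had 2.79 to 5.98 in the other panel arrays, with a median of 4.65, a gap of more than 2 log2 units between the groups. Lss, which closes the sterol ring, had 6.18 to 8.43 in lung arrays and at most 4.66 in the rest of the panel (the M2-like macrophages of spleen). The 4 SMP arrays, at 5.74 to 8.50, and both basophil arrays, at 7.11 and 7.37, lay near or in the lung range.

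The later enzymes, which trim the ring to cholesterol, lay in the same order. Cyp51 had 9.19 to 10.48 in lung arrays against at most 7.83 in the rest of the panel, and Tm7sf2 had 6.59 to 7.64 against at most 5.92. Nsdhl had 6.84 to 7.85 against at most 5.18, and Hsd17b7 had 7.10 to 8.84 against at most 5.27. Ebp had 9.22 to 9.96 against at most 8.64, Sc5d had 7.59 to 8.37 against at most 7.41, and Dhcr7, the last step of its branch, had 10.94 to 12.35 against at most 10.50. Each of these 7 enzymes was without overlap between lung and the other panel arrays.

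**Figure D2:**
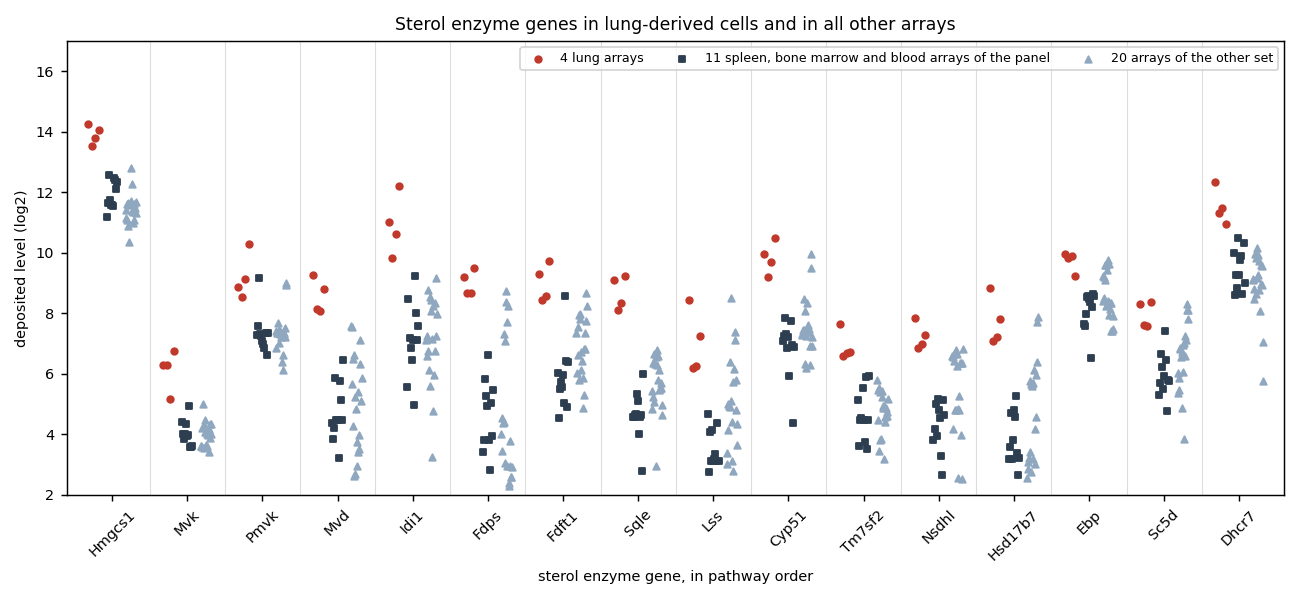
Level (log2, vertical) of the 16 sterol enzymes in pathway order (horizontal) on 4 lung arrays (red circles), the 11 panel arrays of spleen, bone marrow and blood (dark squares) and the 20 arrays of the other set (light triangles). Each point is 1 array, and for 14 enzymes every red point lies above every dark one, with Pmvk and Fdft1 as the exceptions.

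In the panel model, which has a term for cell type and one for tissue, 17 of 32 genes were called higher in lung than in bone marrow and 0 lower, against 6.25% of all genes called higher, 3.05% lower and 9.3% in either direction. Without the filter on dim genes 6 of the 32 were called. At an unadjusted p under 0.05, 24 of the 32 passed, and 3339 of all 11734 genes. The sterol enzymes gave 14 of these calls and had a median log2 difference of 2.58, where the median over all genes tested was 0.07. The largest were Fdps (4.58 ± 1.11, SE, adjusted p = 0.042), Sqle (3.86 ± 0.70, adjusted p = 0.0205), Lss (3.72 ± 0.63, adjusted p = 0.018) and Mvd (3.54 ± 0.50, adjusted p = 0.00971). Fdft1 (2.18) and Tm7sf2 (1.91) did not pass the test.

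Lung macrophages were sorted from no other tissue, so this lung term rests on SatM and dull cells, each with 1 lung array. Leaving out either dull array, or both, left 2 calls, Mvd and Fads1, while leaving out SatM of bone marrow left 5, either other Ly6C-negative array 7, SatM of spleen or of blood 10, and marker-negative cells of bone marrow 11. Against spleen 15 genes were called higher (5.69% of all genes) and 0 lower (1.64%), 7.33% being called in all. Against blood 8 were called higher (3.48% of all genes) and 0 lower (1.25%), 4.73% being called in all. Against spleen, 1 to 9 calls were left without any 1 of the M2-like, SatM, other Ly6C-negative or dull arrays (1 without SatM of spleen). Against blood, 1 to 5 were left without any 1 of these arrays other than lung SatM (1 without SatM of blood). Without the filter on dim genes 4 were called against spleen and 2 against blood. The number of calls thus depended on single arrays and on the filter.

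The lung arrays were also set against others array by array, with no test possible. Within the SatM sort, lung SatM was above SatM of spleen, bone marrow and blood for 16 of 16 sterol enzymes (38.3% of genes tested), and at least 1 log2 unit above their mean for all 16, where 21.4% of genes tested reached 1 unit. The median over the 16 was 2.79. Within the dull sort, lung cells were at least 1 unit above those of bone marrow for 15 of 16 (24.8% of genes). These 2 arrays differed in other ways, with an Actb 3′ to 5′ difference of 0.89 in lung and 4.35 in bone marrow, a Gapdh difference of 1.45 and 5.85, and a summed level over the 6 neutrophil genes of 24.0 and 73.9, and the part of this in the result was not tested. Across sorts, lung macrophages were at least 1 unit above the mean of the 11 other arrays for 16 of 16 (21.2%). Without the 2 dull arrays, all 3 lung arrays lay above the 10 others for 15 of 16 (10.7%).

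The other roles did not follow as a group. Of the regulators none was called in lung against bone marrow. Insig1, the sterol-sensing retention protein, had 12.22 to 13.27 in lung arrays and up to 13.21 elsewhere in the panel. Srebf2, which drives the sterol enzymes, had 9.91 to 11.45 against up to 10.56, and Srebf1, which leans to fatty acid synthesis, had 6.39 to 7.52 against up to 8.71. Scap had 6.69 to 8.00 against up to 7.66, and Insig2 had 6.62 to 7.99 against up to 7.75. All 5 overlapped. Stard4, with 7.67 to 8.54 in lung arrays against at most 6.94, did not overlap but was not called.

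Among the fatty acid genes, Acly, which supplies cytosolic acetyl-CoA, and Acaca, which makes malonyl-CoA, were not called. Acly had 13.38 to 13.67 in lung arrays against up to 13.47, and Acaca had 7.70 to 8.49 against up to 9.09. Fasn, fatty acid synthase, had 5.89 to 7.80 in lung arrays against up to 7.23 and was called higher (2.10 ± 0.53, adjusted p = 0.0457), a call lost without any 1 of 13 panel arrays.

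Fads1, a desaturase of polyunsaturated fatty acids, gave the largest lung difference of all 32 genes (4.86 ± 0.45, adjusted p = 0.00154). It had 5.65 and 7.08 in lung macrophages, 7.35 in lung SatM and 8.07 in lung dull cells. SatM of spleen and blood were at the floor, SatM of bone marrow had 2.65 and dull cells of bone marrow 3.02, but M2-like macrophages of spleen and bone marrow had 6.46 and 7.31. Elovl6, which lengthens saturated fatty acids, was also called (3.15 ± 0.67, adjusted p = 0.0308), a call lost without any 1 of 7 panel arrays. The call was also lost without the filter on dim genes, with the mean of probe sets and without the cell term. A second probe set of Elovl6 went the other way. Its lung mean minus that of the other panel arrays was -0.29, against 1.41 for the one used.

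The cells of the 4 lung arrays were not alike in other genes. Over 6 alveolar macrophage genes the mean level was 11.9 and 8.18 in lung macrophages, 7.75 in lung SatM and 6.08 in lung dull cells, with all 6 above the floor on each array, whereas SatM of the other tissues averaged 6.75 to 7.56. Over 5 lung epithelium genes it was 6.01 and 3.12 in lung macrophages, 4.39 in lung SatM and 4.44 in lung dull cells, with 2 to 4 genes above the floor and Sftpb at the floor on all 4, whereas SatM of other tissues averaged 2.30. Summed over the 5 epithelial genes the lung arrays ran from 15.6 to 30.0, against 11.5 in SatM of the other tissues. Proliferation genes (9) averaged 8.56 to 9.52 in lung arrays. SatM elsewhere lay on both sides of this range, with 10.6 in bone marrow as its highest. Other Ly6C-negative cells, at 4.68 to 6.12, lay below all lung arrays. M2-like macrophages ran from 5.88 to 10.06, marker-negative cells from 7.60 to 8.94, and dull cells of bone marrow had 11.49. The Actb 3′ to 5′ difference was 0.69 to 0.99 in lung arrays, against 0.93 to 1.78 in SatM of other tissues and 4.35 in dull cells of bone marrow. The part of these differences in the sterol result was not tested.

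Lung macrophages and SatM of the panel, compared with tissue in the model, gave 0 called genes of 32 by limma, with a background of 0.128% higher and 0.111% lower (0.239% in all), and 1 at an unadjusted p under 0.05 (806 of all 11734 genes). Lung macrophages have no arrays from another tissue in that comparison, and without lung SatM 1 gene, Elovl5, was called. Of 29 other genes of the pathway that were tested in the panel, 6 were called higher in lung than in bone marrow and 0 lower. The largest were Msmo1 (3.48 ± 0.64, adjusted p = 0.0205), the C4-demethylation enzyme that works between Cyp51 and Nsdhl, and Npc1 (2.76 ± 0.34, adjusted p = 0.00592), which exports cholesterol from lysosomes. Nceh1, a cholesteryl ester hydrolase, and Abcg1, which exports sterol, followed with 2.49 and 1.95.

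In the bone marrow the 2 labelled progenitors, SMP and cMoP, were compared. In SMP 10 of the 32 genes were called lower and 3 higher than in cMoP. Many genes differed between these cells, with 22.7% of all genes called lower and 12.8% higher (35.5% in all), so the count itself says little. The sterol enzymes had a median log2 difference of -1.11, with 8 of 16 lower and 1 higher, where the median over all genes was -0.09.

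Fdps showed the largest fall, with 4.41, 3.05, 2.96 and 2.40 in SMP against 7.33, 7.09, 7.71 and 8.25 in cMoP (-4.39 ± 0.44, SE, adjusted p = 5.43e-06). Idi1 had 6.13, 5.60, 3.26 and 4.77 in SMP against 8.77, 8.55, 7.15 and 8.24 in cMoP (-3.24 ± 0.39, adjusted p = 2.33e-05). Mvd had 2.61, 2.70, 2.95 and 3.41 in SMP against 6.50, 6.61, 3.74 and 5.39 in cMoP (-2.64 ± 0.53, adjusted p = 0.00135). The other, dimmer probe set of Mvd differed by only -0.30. In each of these consecutive isoprenoid steps the 4 SMP arrays lay below the 4 cMoP arrays. Of the 32 genes 9 lay lower in SMP without overlap and 3 higher, against 2261 and 1414 of all 18193 genes. That base includes genes too dim to be tested, and the share among the 12077 genes tested was not counted.

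Hsd17b7, a later sterol reductase, had 3.41, 2.74, 3.20 and 3.02 in SMP against 5.76, 5.67, 5.71 and 6.11 in cMoP (-2.72 ± 0.23, adjusted p = 1.05e-06). The mean over its 4 probe sets, of which 3 lay at the floor on most arrays, gave -0.70, so every value of this gene rests on 1 probe set. Dhcr7 had 8.64, 9.17, 8.77 and 8.06 in SMP against 9.94, 9.84, 9.94 and 9.73 in cMoP (-1.20 ± 0.30, adjusted p = 0.00549), again without overlap. It was not called on the WT-titled arrays alone or on the others alone.

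Sqle (-1.48), Nsdhl (-1.64) and Tm7sf2 (-1.24) were called lower as well, but their calls depended on single arrays. Sqle was not called without cMoP 1, cMoP 2 or SMP 2, nor on the WT-titled arrays or the others alone, and Tm7sf2 was not called without SMP WT 2. Nsdhl was not called without any 1 of 6 of the 8 arrays. The remaining sterol enzymes were not called, with differences of -0.64 for Hmgcs1, -0.24 for Mvk, -0.52 for Pmvk, -1.02 for Fdft1, -0.92 for Cyp51, -0.91 for Ebp and -0.91 for Sc5d.

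Lss went the opposite way. It had 6.38, 8.50, 5.74 and 6.15 in SMP against 4.95, 4.89, 3.12 and 2.80 in cMoP (2.75 ± 0.49, adjusted p = 0.000513). All SMP arrays were above all cMoP arrays, and both other probe sets of Lss pointed the same way.

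Insig1 was the only regulator called, with 8.64 to 9.59 in SMP against 12.07, 11.95, 12.67 and 12.06 in cMoP (-3.01 ± 0.22, adjusted p = 2.86e-07). Srebf1 (-0.75), Srebf2 (0.09), Scap (0.18), Insig2 (0.30) and Stard4 (-0.79) were not called. The fatty acid synthesis genes Acly (-0.23), Acaca (-0.66) and Fasn (-0.98) were not called either.

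The desaturases split. Scd2, a stearoyl-CoA desaturase, had 9.17, 9.28, 8.93 and 8.90 in SMP against 10.72, 10.81, 10.82 and 10.79 in cMoP (-1.72 ± 0.13, adjusted p = 3.73e-07). Fads1 had 9.09, 9.18, 7.33 and 8.12 in SMP against 6.53, 6.33, 3.81 and 4.45 in cMoP (3.15 ± 0.30, adjusted p = 2.77e-06). Fads2, which acts on the same polyunsaturated chains, had 7.95, 7.10, 6.82 and 6.99 in SMP against 5.01, 4.84, 6.45 and 4.46 in cMoP (2.02 ± 0.43, adjusted p = 0.00209). None of these 3 overlapped between the groups. Scd1 (0.41), Elovl1 (-0.32), Elovl5 (0.06) and Elovl6 (-1.11) were not called.

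**Figure D3:**
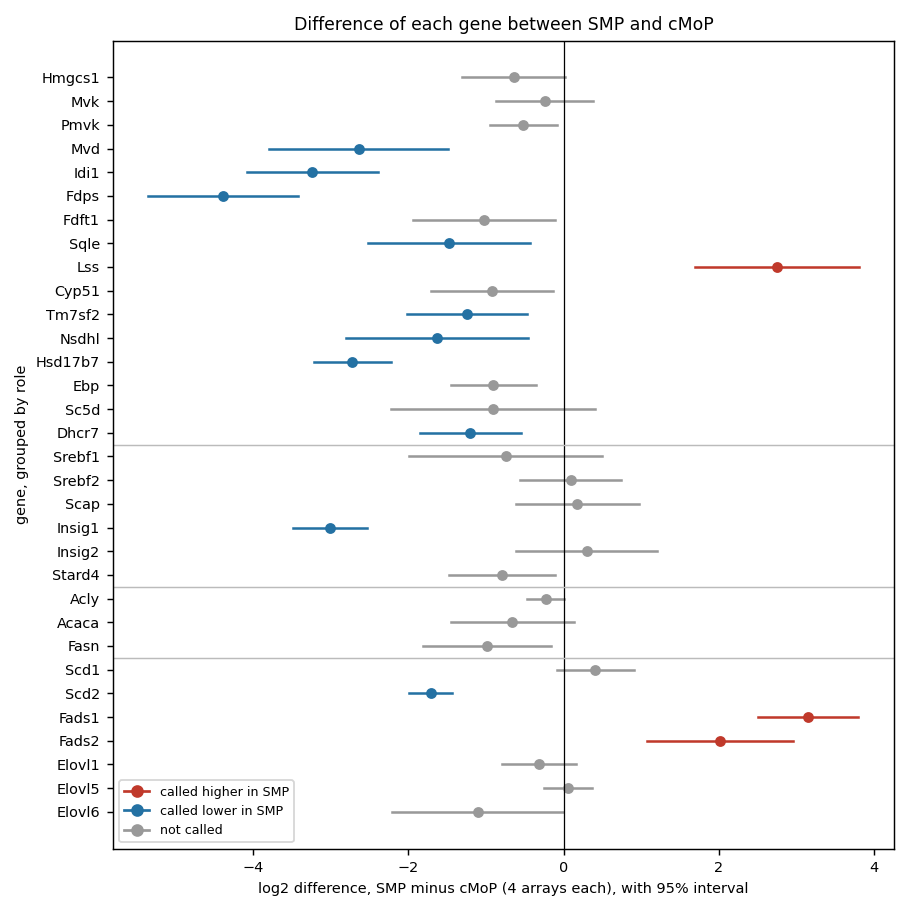
Log2 difference, SMP minus cMoP (horizontal, 4 arrays each), with its 95% interval, for the 32 genes grouped by role (vertical). Genes called lower are blue (10), genes called higher red (3) and genes not called grey (19), with Fdps farthest to the left at -4.39 and Fads1 farthest to the right at 3.15.

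The WT-titled arrays alone gave 6 calls, and Fdps, Lss, Hsd17b7, Insig1, Scd2 and Fads1 were among the calls of both the full and the WT-titled fit. The arrays without WT in the title gave 12 calls, and Sqle, Lss and Dhcr7 were not among them. Proliferation genes averaged 10.03 to 10.46 in SMP and 11.04 to 11.49 in cMoP, and progenitor genes 4.75 to 5.59 in SMP and 9.05 to 10.2 in cMoP. Their part in the sterol differences was not tested. Set against spleen basophils, whose marker genes SMP carried, SMP had 1 gene of 32 called lower and 0 higher, against 2.09% and 0.753% of all genes (2.85% in all). It was Hsd17b7, with a log2 difference of -1.34 ± 0.30 (adjusted p = 0.0349). That call was lost without SMP 2 or without either basophil array. Fads1, at 9.21 and 8.59 in basophils, Lss, at 7.11 and 7.37, and Insig1, at 9.08 and 9.20, lay in or near the SMP range.

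Of 26 other pathway genes tested, 3 were called higher and 5 lower in SMP than in cMoP. Acss2, which makes acetyl-CoA from acetate, had 12.23, 13.09, 12.55 and 12.73 in SMP against 7.71, 7.57, 6.32 and 6.99 in cMoP (5.51 ± 0.24, adjusted p = 3.28e-09), a difference larger than that of any of the 32 genes. Cyp27a1, a sterol hydroxylase, was lower (-3.90 ± 0.59), Scarb1, a lipoprotein receptor, was lower (-2.95 ± 0.38), and Mylip, which degrades the LDL receptor, was higher (2.76 ± 0.35).

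The next comparisons set each mature cell against its labelled progenitor: SatM against SMP, and inflammatory monocytes against cMoP. In inflammatory monocytes 8 of 32 genes were called lower than in cMoP and 0 higher, against 8.25% and 6.62% of all genes (14.9% in all). In SatM 4 were called lower and 2 higher than in SMP, against 14% and 12.8% of all genes (26.8% in all). These fits contain a term for the WT-titled arrays, so a difference is not always that of the plain means.

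Fdps had 4.02 and 3.44 in inflammatory monocytes against 7.09 to 8.25 in cMoP (-3.93 ± 0.59, adjusted p = 0.000473), and in SatM, with 4.53 and 4.38, it was not called against SMP (1.18). Hsd17b7 had 2.56 and 3.09 in inflammatory monocytes, below the 5.67 to 6.11 of cMoP (-2.93 ± 0.30, adjusted p = 2.81e-05), and 2.87 and 3.21 in SatM, inside the SMP range. Scd2 had 9.42 and 9.48 in inflammatory monocytes, below the 10.72 to 10.82 of cMoP (-1.40 ± 0.17, adjusted p = 9.78e-05), and 9.97 and 9.97 in SatM, above the 8.90 to 9.28 of SMP but not called at this threshold (0.83).

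Fads1 was lower in both mature cells. It was at the floor or just above it in SatM (2.30 and 2.38) against 7.33 to 9.18 in SMP (-7.02 ± 0.39, adjusted p = 3.41e-08), and had 2.64 and 2.30 in inflammatory monocytes against 3.81 to 6.53 in cMoP (-3.74 ± 0.39, adjusted p = 3.04e-05). Fads2 was lower in SatM, with 3.29 and 2.30, than in SMP, with 6.82 to 7.95 (-4.44 ± 0.57, adjusted p = 6.28e-05). In inflammatory monocytes it had 2.30 and 2.83 against 4.46 to 6.45 in cMoP (-2.65 ± 0.57, adjusted p = 0.00638), a call lost without inflammatory monocyte 1.

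Elovl6 was called lower in SatM than in SMP (-3.17 ± 0.67, adjusted p = 0.00293) and in inflammatory monocytes than in cMoP (-2.61 ± 0.67, adjusted p = 0.0173). The SMP arrays were uneven for it, with 8.29 and 8.11 against 3.56 and 5.02 in the WT-titled pair, and SatM, with 3.78 and 5.07, overlapped them. In inflammatory monocytes Elovl6 had 6.34 and 5.83, also overlapping the 6.28 to 8.14 of cMoP. Without the term for the WT-titled arrays neither Elovl6 call passed, and in inflammatory monocytes it was also lost without either monocyte array. Fasn (-2.16) and Idi1 (-1.69) were the other 2 genes called lower in inflammatory monocytes. Fasn had 4.46 and 4.58 against 5.91 to 6.94 in cMoP, and Idi1 had 7.11 and 7.26 against 7.15 to 8.77. The Fasn call was lost without either monocyte array, and that of Idi1 without either of these or without cMoP 1 or cMoP 2. Without inflammatory monocyte 1, 4 calls were left of the 8, and without inflammatory monocyte 2, 5.

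In SatM 3 further genes were called against SMP. Lss was lower, with 3.02 and 4.13 against 5.74 to 8.50 (-3.98 ± 0.64, adjusted p = 0.000392). Insig1 was higher, with 12.04 and 12.07 against 8.64 to 9.59 (2.94 ± 0.29, adjusted p = 6.03e-06), and Scd1 was higher, with 7.44 and 6.80 against 2.30 to 3.62 (4.59 ± 0.30, adjusted p = 1.48e-07). None of the 3 overlapped between the groups, but the share of all genes without overlap was not counted, so this says little by itself.

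The difference between the 2 steps was tested as an interaction. It was called for 8 of 32 genes, 6 with the greater value in the SatM step and 2 with the smaller, against 11.1% of all genes either way (22.3% in all). The step from SMP to SatM exceeded that from cMoP to inflammatory monocytes for Fdps (5.11 ± 0.77, adjusted p = 0.000392), Scd1 (4.41 ± 0.40, adjusted p = 5.82e-06), Insig1 (3.07 ± 0.38, adjusted p = 8.66e-05), Hsd17b7 (2.93 ± 0.40, adjusted p = 0.000173), Idi1 (2.72 ± 0.67, adjusted p = 0.0107) and Scd2 (2.23 ± 0.22, adjusted p = 1.49e-05). It was smaller for Lss (-3.36 ± 0.84, adjusted p = 0.0115) and Fads1 (-3.28 ± 0.51, adjusted p = 0.000526). For Fads1 both mature cells were at the floor or just above it, so its value follows the difference between the progenitors and does not measure how far each step went. The Lss call was lost without SatM 1 or inflammatory monocyte 2, and without the WT term neither Lss nor Idi1 passed. The interaction is also the difference between the mature cells less that between the progenitors, and for Fdps, Idi1, Hsd17b7, Insig1, Scd2, Lss and Fads1 the mature cells were not called against each other.

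**Figure D4:**
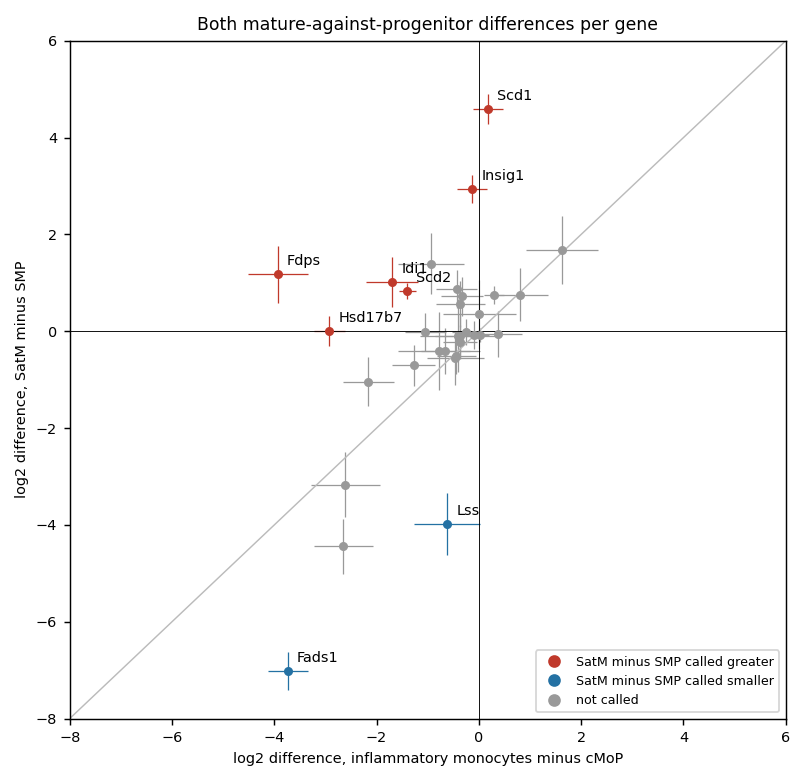
Log2 difference of SatM against SMP (vertical) and of inflammatory monocytes against cMoP (horizontal) for the 32 genes, each with bars of 1 SE, and a diagonal where both are equal. Red genes lie above the diagonal (6, Scd1 highest at 4.59) and blue genes below it (2, Fads1 lowest at -7.02) by the tested difference, and grey genes were not called.

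Of 26 other genes of the pathway, 8 were called higher and 5 lower in SatM than in SMP, with Apoe, a sterol-carrying apolipoprotein (6.44 ± 0.65), Cyp27a1 (5.73 ± 0.78), Acss2 (-4.71 ± 0.32) and Abca1, a sterol exporter (3.61 ± 0.81), as the largest. In inflammatory monocytes 5 of 26 were called higher and 0 lower than in cMoP, led by Apoe (5.43 ± 0.65), Cyp27a1 (2.71 ± 0.78), Abca1 (2.56 ± 0.81) and Acss2 (1.61 ± 0.32).

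SatM and inflammatory monocytes were also compared directly. Of 32, 1 was called higher in SatM and 1 lower, against 2.87% and 6.47% of all genes (9.34% in all). At an unadjusted p under 0.05 by limma, 7 of the 32 passed, and 2799 of all 12077 genes, so both counts were near the background. The choice of probe set mattered in this comparison. Other probe sets of the 32 genes, off the floor on most arrays, had the sign of the one used in 15 cases and the opposite sign in 13. For Stard4 another probe set gave 2.07, where the one used gave -0.23. The gene called higher was Scd1, a stearoyl-CoA desaturase that makes monounsaturated fatty acids. It had 7.44 and 6.80 in SatM, and both inflammatory monocyte arrays were at the floor, which makes the difference at least 28.3-fold (fitted log2 difference 4.82 ± 0.32, adjusted p = 7.24e-07). Mvd was called lower, with 5.66 and 4.27 in SatM against 7.57 and 7.54 in inflammatory monocytes (-2.59 ± 0.75, adjusted p = 0.0456). That call was lost without either monocyte array or SatM 2. Of the other pathway genes 1 of 26 was called higher, Nr1h3, a sterol-sensing nuclear receptor, at least 4.96-fold with both inflammatory monocyte arrays at the floor (adjusted p = 0.00118), and 2 lower, Npc2 (-1.86 ± 0.29) and Hacd3 (-1.33 ± 0.33).

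Scd1 ranged over the study more widely than any other of the 32 genes, and its levels differed between the 2 sets of arrays and also within cell types. It lay at 2.30 to 3.62 on all 18 arrays of the first set other than SatM, progenitors and granulocytes included. In the panel it had 12.06 and 10.49 in M2-like macrophages of spleen and bone marrow, 11.40 and 6.57 in lung macrophages, and 12.22, 9.47, 9.86 and 7.82 in SatM of spleen, bone marrow, blood and lung. Other Ly6C-negative cells had 11.34 and 9.72, lung and bone marrow dull cells 9.45 and 2.37, and marker-negative cells 9.38, 6.24 and 4.47. Among the panel arrays only that of bone marrow dull cells was near the floor. These cells averaged 12.3 over the 6 neutrophil genes, and SatM of bone marrow, with Scd1 at 9.47, averaged 12.5. The part of cell mixture in the Scd1 levels was not tested. The panel and the first set were separate sets of arrays, and SatM of bone marrow, present in both, had 9.47 in the panel against 7.44 and 6.80 in the first set.

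**Figure D5:**
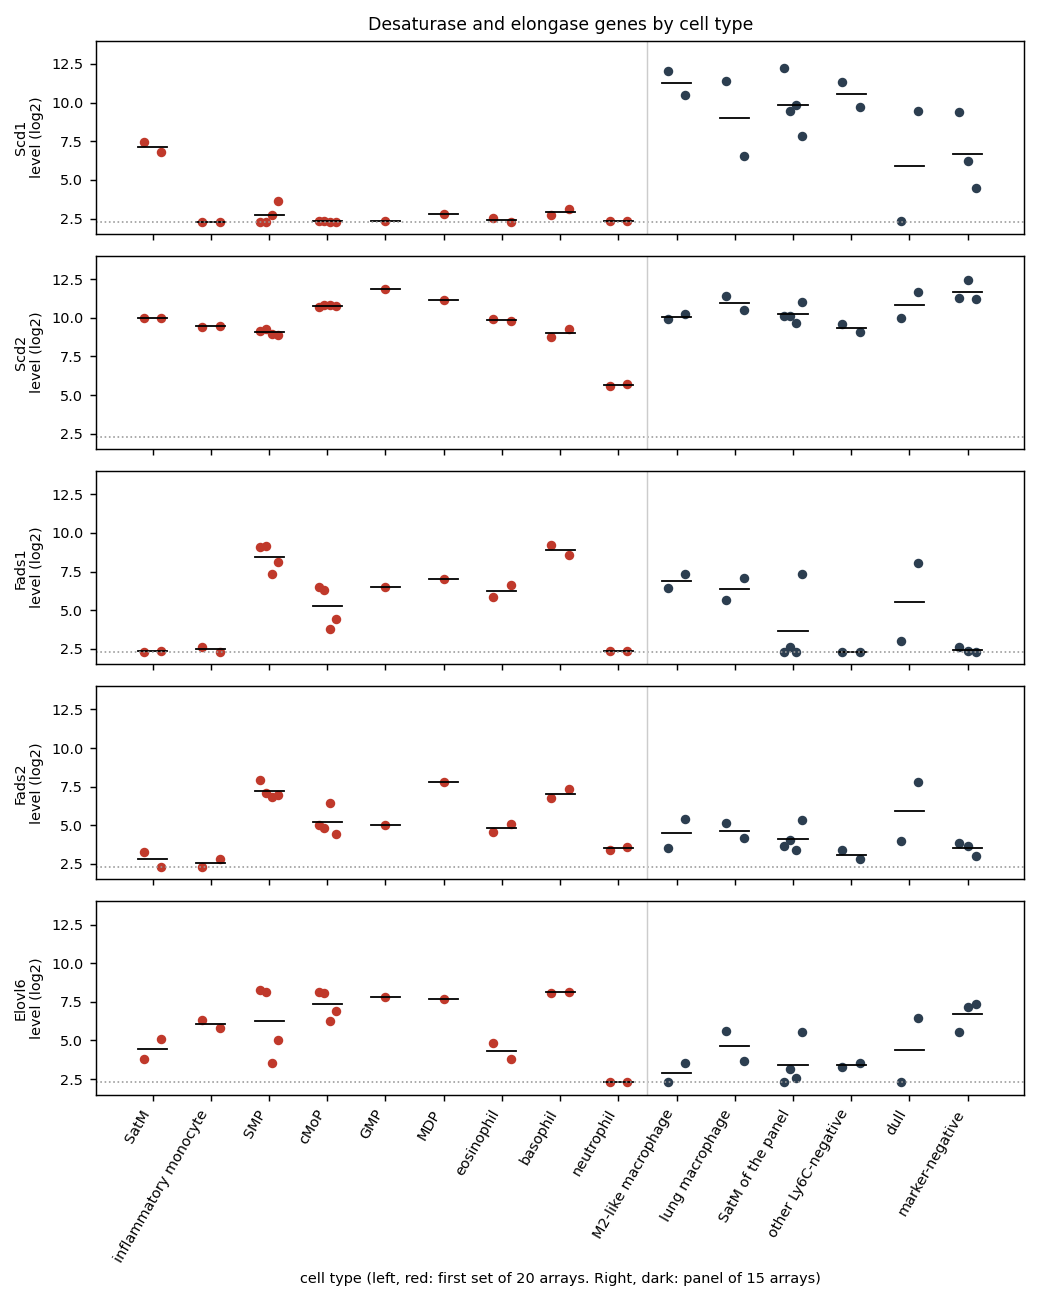
Level (log2, vertical) of Scd1, Scd2, Fads1, Fads2 and Elovl6 on each array (points, with the mean as a line) by cell type (horizontal), with the floor dotted. The first set of arrays is red and the panel dark: Scd1 is near the floor in the first set except in SatM, Scd2 is lowest in neutrophils at 5.60 and 5.69, and Fads1 is highest in basophils and SMP.

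Spleen granulocytes were compared in pairs. Over 6 neutrophil genes basophils averaged 12.07 to 12.77 and eosinophils 10.80 to 10.90, against 14.05 to 14.21 in neutrophils. Over 9 proliferation genes basophils averaged 11.24 to 11.68 and eosinophils 10.93 to 11.24, against 6.84 to 8.18 in neutrophils. The part of these differences in the results below was not tested. Basophils had 10 of 32 genes called higher and 2 lower than neutrophils, against 21.9% and 15.6% of all genes (37.4% in all), so the count was near the background. The called genes were 4 of 16 sterol enzymes, 1 of 6 regulators, 2 of 3 fatty acid synthesis genes and 5 of 7 desaturases and elongases. Fads1 had 9.21 and 8.59 in basophils against 2.38 and 2.38 in neutrophils (6.52 ± 0.42, adjusted p = 1.02e-07). Elovl6 had 8.09 and 8.15 in basophils while both neutrophil arrays were at the floor, a difference of at least 56.6-fold (adjusted p = 3.3e-05). Scd2 had 8.76 and 9.30 in basophils against 5.60 and 5.69 in neutrophils, the lowest pair of the study (3.38 ± 0.18, adjusted p = 1.93e-08).

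Fads2 was also higher, with 6.77 and 7.34 in basophils against 3.43 and 3.61 in neutrophils (3.53 ± 0.61, adjusted p = 0.000502), and Elovl5, which lengthens polyunsaturated chains, had 12.67 and 12.71 against 10.56 and 10.78 (2.02 ± 0.20, adjusted p = 5.59e-06). Fasn had 5.88 and 6.96 in basophils against 3.96 and 3.76 in neutrophils (2.56 ± 0.54, adjusted p = 0.00189). Among the sterol enzymes, Lss (3.26 ± 0.69) and Dhcr7 (2.86 ± 0.42) were higher in basophils. Hsd17b7, with 4.17 and 4.58 in basophils against 7.72 and 7.87 in neutrophils, was lower (-3.42 ± 0.32, adjusted p = 3.48e-06), as was Pmvk, with 7.35 and 7.28 against at least 8.93 in both neutrophil arrays (-1.65 ± 0.28, adjusted p = 0.000422). None of the named genes overlapped between the 2 cell types, and the share of all genes without overlap was not counted. Such separation is common with 2 arrays each. Between SatM and inflammatory monocytes, 2506 genes were higher and 4340 lower without overlap, of 18193. Stard4 (2.09) and Acaca (1.88) completed the genes called higher, and Acaca was not called without basophil 2 or neutrophil 1.

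Eosinophils had 11 of 32 genes called higher and 3 lower than neutrophils, against 23.1% and 17.4% of all genes (40.5% in all). Their Actb 3′ to 5′ difference of 5.86 to 5.88, against 2.34 to 2.73 in neutrophils, stands beside every value. With that difference as a covariate, 2 of the 14 calls passed, Scd2 and Stard4. The highest other array of the first set had 3.37 (basophil 1), so RNA quality and eosinophil identity cannot be told apart in that fit. A call lost or kept there thus does not separate the 2. Scd2 had 9.90 and 9.82 in eosinophils against 5.60 and 5.69 in neutrophils (4.21 ± 0.18, adjusted p = 2.4e-09), and Stard4 had 7.92 and 8.40 against 5.77 and 6.04 (2.25 ± 0.45, adjusted p = 0.00129). Cyp51, with 9.49 and 9.94 in eosinophils against 6.91 and 7.21 in neutrophils, lost the call with the covariate. So did Scap, with 8.89 and 8.66 against 6.38 and 6.79. Fads1 had 5.87 and 6.64 in eosinophils against 2.38 and 2.38 in neutrophils, and Nsdhl was lower, with 3.98 and 2.52 against 6.35 and 6.82. Dhcr7 had 8.94 and 9.57 in eosinophils against 5.77 and 7.05 in neutrophils, Fasn had 6.23 and 7.09 against 3.96 and 3.76, and Acaca had 8.19 and 8.82 against 5.52 and 6.13. The other 5 called genes were Srebf1 (2.32), Elovl5 (2.12) and Elovl6 (at least 4.07-fold, both neutrophil arrays being at the floor), higher, and Pmvk and Hsd17b7 (both -1.61), lower. The calls of Srebf1 and Elovl6 were each lost without 1 of 3 arrays, both neutrophil arrays among them.

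Against basophils, eosinophils had 6 genes called higher and 4 lower, against 9.36% and 11.3% of all genes (20.6% in all). With the covariate, which has the same limit here, 0 were called. Without basophil 1 or without eosinophil 2, 5 calls were left. Cyp51 was higher, with 9.49 and 9.94 in eosinophils against 6.29 and 6.93 in basophils (3.11 ± 0.51, adjusted p = 0.000817). Fads1, at 5.87 and 6.64, was lower in eosinophils than in basophils in the fit without the covariate (-2.65 ± 0.42, adjusted p = 0.000619), as was Elovl6, at 4.82 and 3.82 (-3.80 ± 0.72, adjusted p = 0.00211). Nsdhl (-3.11) and Fads2 (-2.20) were lower too, and Mvd (2.98), Idi1 (2.39), Scap (2.16), Hsd17b7 (1.81) and Elovl1 higher, of which only Hsd17b7 kept its call without any 1 of these arrays.

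Among 26 other pathway genes, 7 were called higher and 5 lower in basophils than in neutrophils, and 7 higher and 9 lower in eosinophils than in neutrophils. Hacd3, a dehydratase of chain elongation, led both, with 12.05 and 12.40 in basophils and 12.22 and 12.47 in eosinophils, against 6.57 and 7.30 in neutrophils. Elovl7, an elongase, was lower in both (-4.40 in basophils and -4.74 in eosinophils). Basophils were also higher in Hsd17b12 (3.49), a reductase of chain elongation, and Scarb1 (3.45). Eosinophils were higher in Vldlr, a lipoprotein receptor, at least 20.4-fold with both neutrophil arrays at the floor, and lower in Msmo1 (-3.43). The 3 comparisons share arrays. Eosinophils had 5 called lower than basophils and 0 higher, led by Acss2 (-2.58) and Apoe (-2.51).

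In the panel, M2-like macrophages had 1 of 32 genes called higher than SatM and 0 lower, against 5.39% and 2.92% of all genes (8.31% in all). Fads1 had 6.46 and 7.31 in M2-like macrophages of spleen and bone marrow, against 2.30 and 2.65 in SatM of the same tissues (4.45 ± 0.44, adjusted p = 0.000955). SatM of blood was at the floor. The model takes out tissue, and without the tissue term the call was lost, where lung SatM, with 7.35, counts in full. Without lung SatM 2 genes were called. Of the 29 other pathway genes 5 were called higher and 1 lower, with Nr1h3 (5.75 ± 0.37), Acsl3 (2.99 ± 0.73), which activates fatty acids, Lipa (2.48 ± 0.35), the lysosomal lipase, and Hacd2 (-1.77 ± 0.39) as the largest.

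SatM of the panel had 4 of 32 genes called lower than marker-negative cells and 0 higher, against 5.28% and 4.94% of all genes (10.2% in all). Elovl6 had 2.30, 3.17 and 2.60 in SatM of spleen, bone marrow and blood against 5.53, 7.20 and 7.35 in marker-negative cells (-4.18 ± 0.57, adjusted p = 0.00414). Scd2 had 10.13, 10.10 and 9.66 in SatM against 11.28, 12.47 and 11.22 in marker-negative cells (-1.79 ± 0.33, adjusted p = 0.0131), and Fasn had 4.27, 4.55 and 4.50 against 6.15, 7.23 and 6.92 (-2.27 ± 0.45, adjusted p = 0.0173). In these 3 tissues none of the 3 overlapped, but the share of all genes without overlap was not counted, so this says little by itself. Sc5d (-1.19) was the fourth. The calls of Scd2, Fasn and Sc5d were each lost without any 1 of 3 to 6 arrays, 1 or 2 calls being left without marker-negative cells of bone marrow or blood or SatM of bone marrow or blood, and all 4 were lost without the tissue term. Marker-negative cells carried the NK cell genes at 11.1 to 12.7 on average (all 3 above the floor), against 2.30 to 3.96 in SatM of the panel (at most 1 of 3), and the part of cell type in these differences was not tested. Of the other pathway genes 3 of 29 were called higher in SatM, Apoe (8.01 ± 1.53), Scarb1 (5.29 ± 0.97) and Lipa (1.97 ± 0.30), and 1 lower, Elovl7 (-3.77 ± 0.66).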

How the data were processed

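The log2 expression values were used as deposited by the authors in 1 table of 35 arrays and 45101 probe sets. The summarisation, background correction and normalisation behind them are not given in the sources used here, and base 2 was inferred from the range of the values (2.30 to 16.02). Of the probe sets, 34945 had 1 gene symbol in the platform annotation, 932 several, 9160 none and 64 were controls. Symbols were updated through Entrez numbers for 34741. For each of 18193 genes the probe set of highest mean level was used, and levels of different probe sets are not compared.

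Linear models were fitted with limma 3.58.1 in R 4.3.3 (lmFit, eBayes with trend) on all genes that exceeded the array's median on at least 2 arrays of the model. The first model held the 20 arrays outside the panel, with terms for cell type and for WT in the title (12077 genes). The panel model held 15 arrays with terms for cell type and tissue (11734 genes). A call needed a Benjamini-Hochberg adjusted p under 0.05 over all genes tested and a log2 difference of 1 or more in size. No value was imputed. A value within 0.01 of 2.30 counts as at the floor, and where 1 group lay there throughout, the fold was taken from the mean of the other group over the floor. Precision is limited by the number of arrays. The fit was tested on simulated data.

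The genes and lists were chosen with earlier results of these data known. All 32 genes found are named, up to 10 called genes per comparison are given by array and up to 4 called other pathway genes are named. Of the other pathway genes 31 of 39 were found, and the rest were not analysed here. Promoter windows are RefSeq's (GRCm38.p6). Alternatives were quantile normalisation, no filter, the mean of probe sets, eBayes without trend, other terms, compared groups alone and each array left out. Quantile normalisation moved the median gene of an array by at most 0.27. Figures were drawn with Python 3.11.15 and matplotlib 3.10.9.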

Additional observations from a re-analysis of the deposited data

Results flagged for a closer look

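Among 96 gene and group combinations with 4 arrays, 11 had 1 array far from the other 3. For 4 alike arrays the cut-off would be passed about 1 time in 20. These groups are not alike, since panel SatM holds 4 tissues and SMP and cMoP each mix WT-titled and other arrays. The count of 11 therefore cannot be set against chance. The measure is the gap to the nearest array as a share of the group's range. In panel SatM the lung array stood above the others for Sqle (0.857), Lss (0.899), Cyp51 (0.887), Fasn (0.903) and Fads1 (0.931), and the spleen array stood below them for Scap (0.945). In cMoP the first WT-titled array stood above the others for Hmgcs1 (0.830) and Insig1 (0.833) and below them for Ebp (0.956) and Fasn (0.941). In SMP the first WT-titled array stood below the others for Nsdhl (0.998), with 2.55 against 4.80 on each of the other 3.

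The step from SMP to SatM differed from that from cMoP to inflammatory monocytes by the interaction term for 8 genes. The log2 difference of the steps was 5.11 for Fdps, 4.41 for Scd1, 3.07 for Insig1, 2.93 for Hsd17b7, 2.72 for Idi1, 2.23 for Scd2, -3.28 for Fads1 (where both mature cells lay at the floor or just above it) and -3.36 for Lss.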

How the results depend on the processing

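Counts are of called genes among the 32, and a range beside a count is that with 1 array left out. SatM against inflammatory monocytes gave 2, with 1 without the filter on dim genes, 0 with the replicate block and 1 to 3 with 1 array left out. SMP against cMoP gave 13 (11 to 16), and 6 on the WT-titled arrays alone. SatM against SMP gave 6 (6 to 8), and inflammatory monocytes against cMoP 8 (4 to 8), with 4 under the replicate block. The difference of the steps gave 8 (7 to 10). SMP against basophils gave 1 (0 to 1), with 0 on these groups alone and 0 with the replicate block. Eosinophils against neutrophils gave 14 (12 to 13), and 2 with the 3′ to 5′ difference as a covariate, a fit that cannot separate it from eosinophil identity. Basophils against neutrophils gave 12 (11 to 12). Eosinophils against basophils gave 10 (5 to 8), and 0 with the covariate, where Elovl1 turned to -0.0642. M2-like macrophages against SatM gave 1 (1 to 2), and 0 without the tissue term. Lung macrophages against SatM gave 0 (0 to 1), and SatM against marker-negative cells 4 (1 to 4), with 0 without the tissue term. Lung against bone marrow gave 17 (2 to 16), with 6 without the filter and 2 without both dull arrays. Lung against spleen gave 15 (1 to 16), with 4 without the filter and 9 without the dull arrays. Lung against blood gave 8 (1 to 10), with 2 without the filter, 18 without the cell term and 5 without the dull arrays. The filter sets how many genes share the adjustment; the cause of the other changes was not tested. The tissue comparisons with spleen and blood, the covariate and the fits without dull arrays were chosen after seeing the data.

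Same-numbered arrays deviated together with correlations of -0.05 to 0.23, so the replicate numbers were not taken as pairs. Over single genes and alternatives, 6322 values kept direction and side of the threshold, 480 lost a call, 109 gained one and 1 reversed. Between 43.6% and 48.3% of probe sets per array lay at the floor, which limits what can be said of dim genes such as Scd1 and Elovl6.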

Other observations

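The single arrays of GMP and MDP entered no comparison. They held the highest Fdps outside the lung, at 8.38 and 8.74. Insig1 had 11.08 in GMP and 11.31 in MDP, nearer to cMoP (11.95 to 12.67) than to SMP (8.64 to 9.59), and Hsd17b7 had 5.61 and 5.67, close to cMoP (5.67 to 6.11). Scd2 had 11.83 in GMP and 11.12 in MDP, above all SMP and cMoP arrays. Fads1 had 6.50 and 7.04, below the SMP range of 7.33 to 9.18. Fads2 had 5.01 in GMP and 7.80 in MDP. Each is 1 array, so no test was possible.

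Ch25h, which makes the oxysterol 25-hydroxycholesterol, was above the floor on few arrays. It had 9.87 and 7.07 in lung macrophages, 5.39 in lung SatM and 5.76 in lung dull cells. Elsewhere it was above the floor on 3 panel arrays, at 4.73 in other Ly6C-negative cells of spleen and at 3.30 and 4.02 in SatM of spleen and bone marrow.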
